A study of Mus musculus with 30 samples.

Results

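A set of 10 immediate early genes, all outside the AP-1 family, was followed through 4T1-tdTomato mammary carcinoma cells at 3 stages of growth in 2 mouse hosts. The genes were Egr1, Egr2, Egr3, Nr4a1, Nr4a2, Nr4a3, Ier2, Ier3, Klf4 and Zfp36, taken by symbol from a table of 49315 genes. All 10 were in the table and all 10 were among the 17774 genes with enough counts to be tested. The cells, a BALB/c mammary carcinoma line that carries a red fluorescent protein, were grown in female mice and sorted as living, CD45-negative and tdTomato-positive before RNA sequencing. The 6 groups held 5 libraries each. BALB/c tumours (day 21 for replicates 1 and 2, day 22 for replicates 3, 4 and 5) and NSG tumours (day 10) grew from 200000 cells placed in the mammary fat pad. BALB/c DTC and NSG DTC, cells disseminated in the lung, were collected on day 7 after 500000 cells were given through the tail vein. BALB/c macro-mets (day 21, and day 23 for replicate 5) and NSG macro-mets (day 19, and day 20 for replicate 5) were lung endpoint samples after the same injection. BALB/c mice have an intact immune system, and NSG mice lack T, B and NK cells. Tumours differ from the lung groups in organ, route and number of cells as well as in stage, and both tumours and macro-mets were collected on different days in the 2 hosts, so none of these can be told apart from stage or host. The labels do not say that the 5 libraries of a group came from separate animals, so p-values measure the spread between these libraries, which may be technical.

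Immediate early genes are transcribed within minutes of a stimulus without new protein synthesis. Growth factor and serum signals pass through the ERK branch of the MAPK cascade to serum response factor and its ternary complex partners, which bind CArG boxes in promoters such as those of the Egr genes. Signals through cyclic AMP and calcium act through CREB, which binds the sequence TGACGTCA or the shorter TGACG found in promoters of the Nr4a genes. Egr1, Egr2 and Egr3 encode zinc finger transcription factors, and Nr4a1, Nr4a2 and Nr4a3 encode orphan nuclear receptors whose activity is set largely by their abundance. Klf4 encodes a zinc finger factor of epithelial cells, Ier2 a nuclear protein and Ier3 a stress-induced protein linked to cell survival. Zfp36 encodes tristetraprolin, which binds AU-rich elements in mRNAs such as that of Tnf and promotes their decay. Enzymatic digestion of tissue at body temperature is known to induce these genes. All 6 groups were digested with collagenase for 30 min at 37 °C, so transcripts present in the tissue and transcripts made during handling cannot be told apart here.

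The promoters of the Nr4a genes are shown because Nr4a transcripts varied most in what follows, and those of Egr2 and Zfp36 because they hold a CArG box. Of the 10 genes, 7 had an entry in the RefSeq promoter table of GRCm38.p6. Sequence is given 5′ to 3′ on the gene's strand, from 250 bases before the transcription start. Only bases outside the exons of GENCODE M21 are shown, apart from 30 bases around the Zfp36 site, which GENCODE annotates as exonic. Capitals mark TGACG on either strand (CGTCA on the other), CCGGAA on either strand (the core site of ETS factors) and CArG boxes. The regions are chr15:101266596-101266845 (+) for Nr4a1, chr2:57124004-57124253 (-) for Nr4a2, chr4:48045055-48045152 (+) for Nr4a3, chr10:67537619-67537868 (+) for Egr2, and chr7:28379267-28379296 (-) for Zfp36.
Nr4a1: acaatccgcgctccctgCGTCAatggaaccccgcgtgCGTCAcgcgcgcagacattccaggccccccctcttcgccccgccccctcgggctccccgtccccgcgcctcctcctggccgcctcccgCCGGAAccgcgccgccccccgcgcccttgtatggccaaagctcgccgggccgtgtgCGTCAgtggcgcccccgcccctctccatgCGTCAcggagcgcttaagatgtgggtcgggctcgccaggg
Nr4a2: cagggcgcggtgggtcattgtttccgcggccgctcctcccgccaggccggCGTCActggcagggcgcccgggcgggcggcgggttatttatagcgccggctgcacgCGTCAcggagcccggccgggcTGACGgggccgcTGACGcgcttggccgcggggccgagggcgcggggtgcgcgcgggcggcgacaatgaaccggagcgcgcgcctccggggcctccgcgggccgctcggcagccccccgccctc
Nr4a3: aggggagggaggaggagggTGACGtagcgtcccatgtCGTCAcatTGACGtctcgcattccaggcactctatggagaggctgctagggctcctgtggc
Egr2: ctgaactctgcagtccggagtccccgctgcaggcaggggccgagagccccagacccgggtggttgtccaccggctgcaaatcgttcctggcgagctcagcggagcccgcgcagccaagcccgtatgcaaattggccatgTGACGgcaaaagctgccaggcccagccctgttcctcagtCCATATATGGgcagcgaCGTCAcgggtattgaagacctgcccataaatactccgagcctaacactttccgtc
Zfp36: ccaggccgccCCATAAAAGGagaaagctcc

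Each of the 3 Nr4a windows of 250 bases held 4 matches to TGACG, counted on both strands. In Nr4a1 they began at -233, -213, -69 and -40 from the start, in Nr4a2 at -200, -144, -123 and -111, and in Nr4a3 at -231, -213, -205 and -147, the last of these inside the exon that is not shown. Of all 32851 promoter windows in the table, 5836 (17.8%) held at least 1 match and 45 (0.137%) held 4 or more. The longer TGACGTCA, which contains TGACG, was in 1.55% of all windows and in none of those of the 7 genes. Klf4 held 1 match to TGACG, and Ier3 and Zfp36 held none. A CArG box was present in the Zfp36 window at -58 and in 4 of the 5 Egr2 windows, which belong to alternative starts and partly overlap, against 482 of all windows (1.47%). Several of these Egr2 windows hold the same CArG box, the one shown above, so the windows do not count separate sites. The Egr2 window shown held its CArG box at -72 and 2 matches to TGACG. These are matches of letters in short windows and describe neither binding nor its absence.

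**Figure D1:**
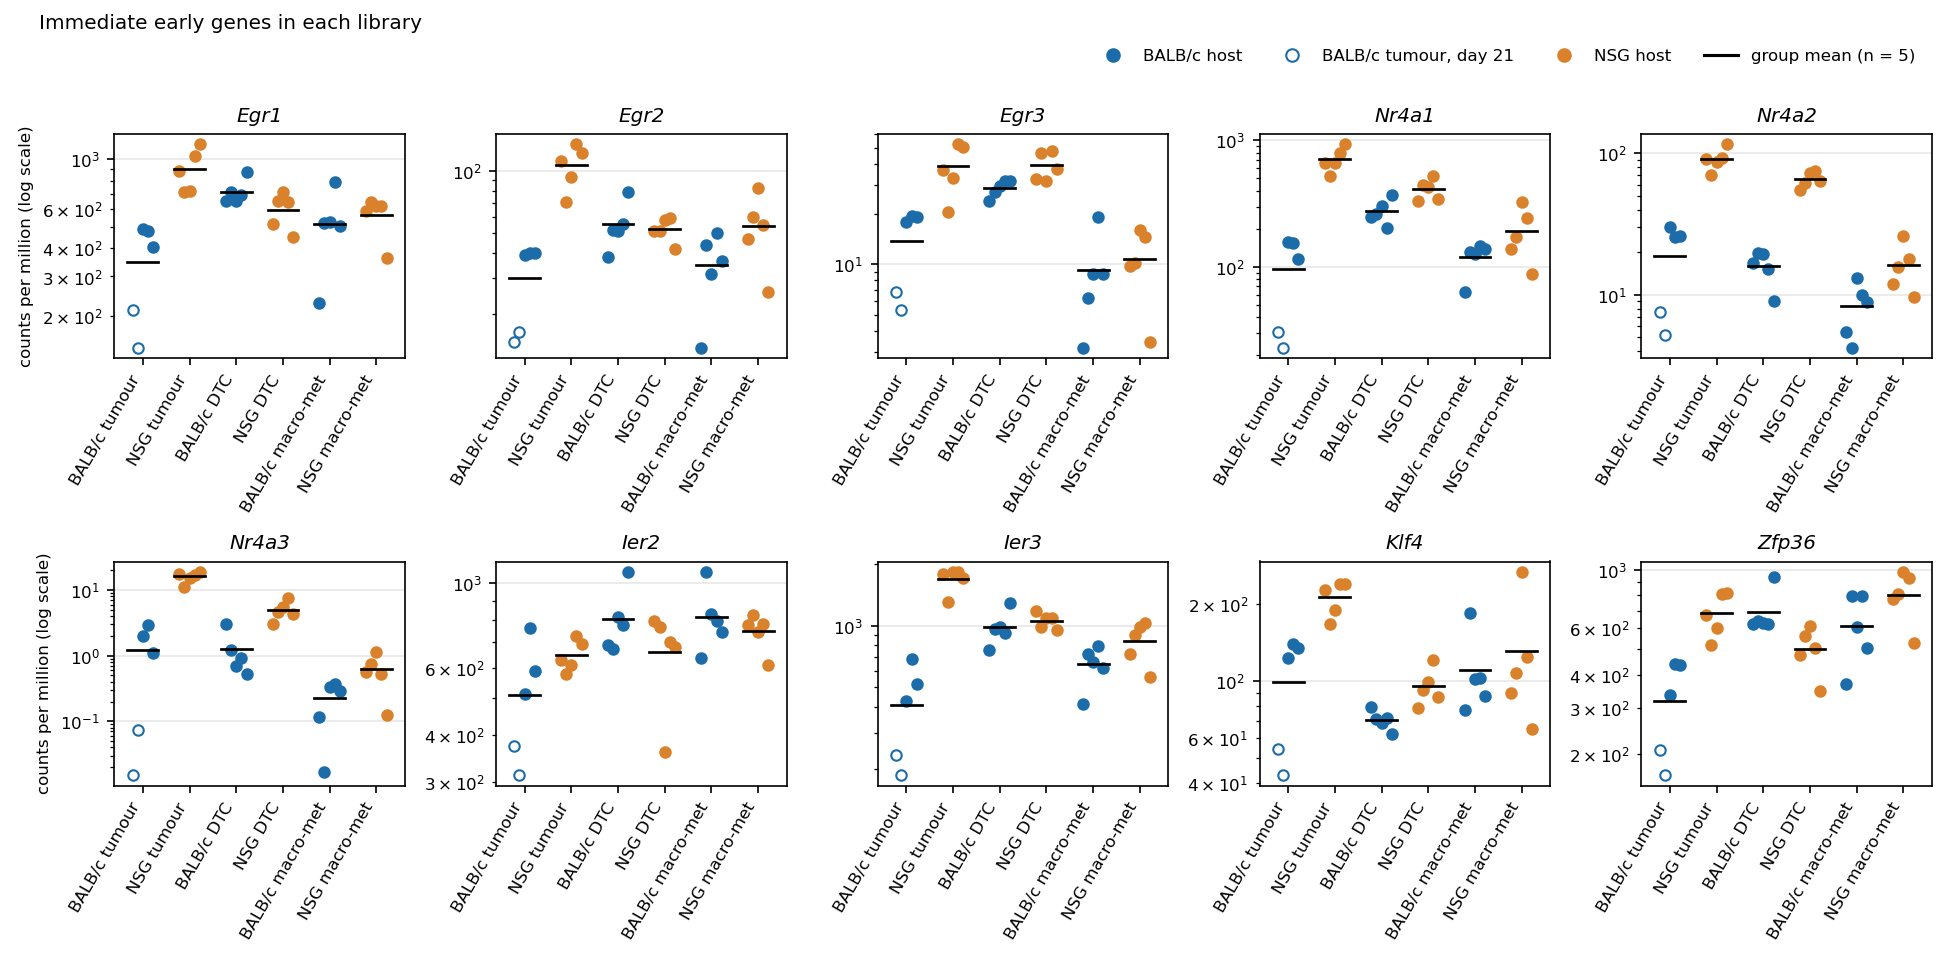
CPM (log axis) of the 10 genes in each of the 30 libraries, grouped by stage and host, with a bar at each group mean (n = 5) and open circles for BALB/c tumours of day 21. NSG tumours sit above BALB/c tumours without overlap for 9 of the 10 genes, and the open circles are the lowest points of the BALB/c tumours in each panel. The share of all genes apart between the hosts in this way is not given.

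Total counts ran between 29832098 and 65621525 per library. The sorted cells carried mammary carcinoma markers at 4560 to 10450 summed CPM (8 markers; CPM are counts scaled to library size with TMM factors), and lymphocyte markers summed to at most 3.09 CPM. BALB/c DTC replicates 1 and 2 stood apart: summed lung epithelial markers (12 genes) reached 3442 CPM in BALB/c DTC, where the lowest library had 133.5, against 61.6 to 82.9 in NSG DTC, 16.1 to 55.3 in BALB/c tumours and 23.4 to 31.1 in NSG tumours. Macro-mets had 46.6 to 87.7 CPM of these markers in BALB/c and 41.2 to 68.3 in NSG mice. Endothelial markers (12 genes) ran between 180.1 and 674 CPM in BALB/c DTC and between 149.4 and 258.4 in the other groups, and Eng made up most of that sum in tumours. Of the 12 lung epithelial markers, 5 to 10 were at 0 in each BALB/c tumour and 5 to 9 in each NSG tumour. Few genes with a count, between 17517 and 19049, were found in 4 libraries, where all others had at least 19563: BALB/c tumour replicate 4, NSG tumour replicates 2 and 3, and NSG macro-met replicate 3. The rank correlation of a gene's GC content with its level relative to the mean of all libraries ran from -0.594 in NSG DTC to 0.442 in BALB/c DTC. The part of these differences in the results was not tested beyond leaving out the libraries that stand apart and fitting GC and length offsets. The balance of calls over all genes depended on scaling. Of all genes called, 62.6% were higher in NSG DTC than in NSG tumours from the counts, against 86.5% on log2(TPM + 1) and 30.9% with GC and length offsets. For BALB/c against NSG DTC the shares were 44.2%, 21.8% and 56.8%, and for NSG macro-mets against NSG DTC 48.7%, 35.5% and 59.7%. For BALB/c macro-mets the share was 53.9% from the counts and 68.3% on log2(TPM + 1) against DTC, and 51.8% and 63.5% against tumours. For BALB/c against NSG tumours it was 46.7% from the counts and 34.7% with GC and length offsets, and for BALB/c against NSG macro-mets 71.3% from the counts and 59.7% in DESeq2. Among tests of the host difference, the share of positive calls from the counts, on log2(TPM + 1) and with GC and length offsets was 44.9%, 23.8% and 64.5% for DTC against tumours, and 58.8%, 84.8% and 44.1% for macro-mets against DTC. For macro-mets against tumours it was 67.5% from the counts and 52.6% in DESeq2. On log2(TPM + 1) the median log2 fold change of all genes shifted by -0.14 for BALB/c against NSG DTC, 0.12 for NSG DTC against tumours, and -0.10 and 0.18 for the host differences of DTC against tumours and of macro-mets against DTC. With GC and length offsets it shifted by -0.17 for NSG DTC against tumours, -0.11 for BALB/c against NSG tumours and 0.15 for the host difference of DTC against tumours.

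Per unit of length, Ier3 was the most abundant of the 10 transcripts, at a mean of 2258 TPM (the authors' length-scaled unit of transcript abundance) over the 30 libraries, followed by Ier2 at 1251 TPM. Zfp36 (473.6), Egr1 (369) and Nr4a1 (336) followed, then Klf4 (107), and Egr3 (45.5), Egr2 (44.4) and Nr4a2 (24.5) below it. Nr4a3 was the scarcest, at 1.84 TPM. The genes also differed in how far they moved across groups. The ratio of the highest to the lowest group mean in CPM was 70.9 for Nr4a3, 10.9 for Nr4a2 and 7.42 for Nr4a1, and it was 4.24 for Egr3, 4.11 for Ier3, 3.57 for Egr2, 3.01 for Klf4, 2.61 for Egr1 and 2.54 for Zfp36. Ier2 had the narrowest span, at 1.6. The highest group was NSG tumour for 7 of the 10 genes, NSG DTC for Egr3 (beside NSG tumour, which it overlapped), BALB/c macro-met for Ier2 and NSG macro-met for Zfp36. The lowest was BALB/c tumour for Egr1, Egr2, Nr4a1, Ier2, Ier3 and Zfp36, BALB/c macro-met for Egr3, Nr4a2 and Nr4a3, and BALB/c DTC for Klf4. Most neighbours in these orders overlapped in their libraries. The exceptions were NSG tumour above NSG DTC for Nr4a1, Nr4a3 and Ier3, NSG DTC above BALB/c tumour for Nr4a2, and BALB/c DTC above BALB/c tumour for Egr3.

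Tumours in BALB/c mice held far less of these transcripts than tumours in NSG mice. Of the 10 genes, 9 were lower in BALB/c tumours (edgeR quasi-likelihood test, adjusted p under 0.05, here called), none was higher, and all 9 were apart between the hosts without overlap. Over all genes tested, 12.6% were called lower and 11% higher in the same comparison. The share of all genes apart without overlap is not given here or for the other comparisons of 2 groups. The median log2 fold change of the 10 genes was -1.67, against 0.08 for all genes. These are pooled sorted cells, so fewer expressing cells and less RNA per cell cannot be told apart here or in the comparisons that follow. Beside this difference, mammary carcinoma markers summed to 6914 to 7724 CPM in BALB/c tumours and 9673 to 10120 CPM in NSG tumours, and macrophage and monocyte markers (10 genes) to 67.3 to 175 CPM in BALB/c tumours and 38.9 to 63.3 CPM in NSG tumours. Their part in the result was not tested.

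The nuclear receptor genes differed most. Nr4a1 measured 30.8, 22.9, 158.5, 155 and 116 CPM in BALB/c tumours, against 660.4, 527, 665, 802 and 933 CPM in NSG tumours. The highest BALB/c library was below the lowest NSG library, with a log2 fold change of -2.89 ± 0.41 (SE, adjusted p = 7.17e-06). Nr4a2 measured 7.57, 5.21, 30.3, 25.6 and 25.9 CPM in BALB/c tumours, against 91.4, 70.2, 86.5, 93 and 116 CPM in NSG tumours. Again no library crossed between hosts, and the log2 fold change was -2.28 ± 0.37 (adjusted p = 4.56e-05). Nr4a3 had 1, 4, 67, 135 and 65 reads in BALB/c tumours (0.015, 0.0724, 2, 2.95 and 1.08 CPM), against 676, 338, 868, 1069 and 933 reads in NSG tumours (17.7, 11.2, 15.3, 17.1 and 19 CPM). Its log2 fold change was -3.73 ± 0.75 (adjusted p = 0.000546) with BALB/c replicates 1 and 2 at 1 and 4 reads.

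Among the effector genes, Ier3 stood closest to the Nr4a genes. It measured 233, 186, 431, 689 and 516 CPM in BALB/c tumours, against 1775, 1308, 1829, 1820 and 1713 CPM in NSG tumours, a log2 fold change of -2.04 ± 0.25 (adjusted p = 5.95e-07). Zfp36 averaged 317.5 ± 127 CPM in BALB/c tumours and 685 ± 130 CPM in NSG tumours (SD, n = 5 each), a log2 fold change of -1.11 ± 0.24. Ier2 was the gene not called: it averaged 509.7 ± 179 CPM in BALB/c tumours and 647.5 ± 61 CPM in NSG tumours, with overlap and a log2 fold change of -0.35 ± 0.20 (adjusted p = 0.207).

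The zinc finger factors lay between these extremes. Egr1 measured 213, 144, 489.7, 478 and 405.5 CPM in BALB/c tumours, against 882, 712, 722, 1036 and 1164 CPM in NSG tumours, a log2 fold change of -1.38 ± 0.28 (adjusted p = 0.00049). Egr2 averaged 30 ± 13.2 CPM in BALB/c tumours and 107 ± 25.3 CPM in NSG tumours (log2 fold change -1.84 ± 0.32). Egr3 averaged 13.8 ± 7.04 CPM in BALB/c tumours and 38.6 ± 13.1 CPM in NSG tumours (-1.49 ± 0.40). Both were apart between hosts, as was Egr1. Klf4 averaged 99 ± 46.5 CPM in BALB/c tumours and 212.5 ± 31.9 CPM in NSG tumours, a log2 fold change of -1.10 ± 0.31 (adjusted p = 0.0104).

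BALB/c tumours were themselves split by day of collection. All 10 genes were higher in each of the 3 libraries of day 22 than in both libraries of day 21, an arrangement found in 8.66% of all genes tested, and the median log2 ratio of the day means over all genes was -0.03. Day 22 over day 21, the ratio of mean CPM was 5.34 for Nr4a1, 4.27 for Nr4a2, 3.09 for Egr3, 2.73 for Klf4, 2.6 for Ier3, 2.56 for Egr1, 2.55 for Egr2, 2.16 for Zfp36 and 1.81 for Ier2. For Nr4a3 the day 21 libraries had 1 and 4 reads and no ratio is given. The number in the sample titles also differs between the days, so the day and whatever that number marks cannot be told apart. Fibroblast markers (8 genes) moved with the day, at 386.5, 853 and 450.4 summed CPM on day 22 and 268.9 and 289 on day 21, while NSG tumours had 253.5 to 361; their part in the result was not tested. With day 22 tumours alone, 7 genes were still called lower in BALB/c than in NSG tumours: Egr1 (-0.98), Egr2 (-1.43), Nr4a1 (-2.33), Nr4a2 (-1.74), Nr4a3 (-3.00), Ier3 (-1.63) and Zfp36 (-0.76). The calls of Egr3 (-1.04, adjusted p = 0.0827) and Klf4 (-0.68, adjusted p = 0.118) ended. With day 21 tumours alone all 10 were called lower, Ier2 among them (-0.91). Shares of all genes called are given for the fit of all 30 libraries, not for fits by day or other alternatives. Ier2 was also called lower without BALB/c tumour replicate 4 (-0.53) and without the 4 libraries of few genes (-0.65).

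**Figure D2:**
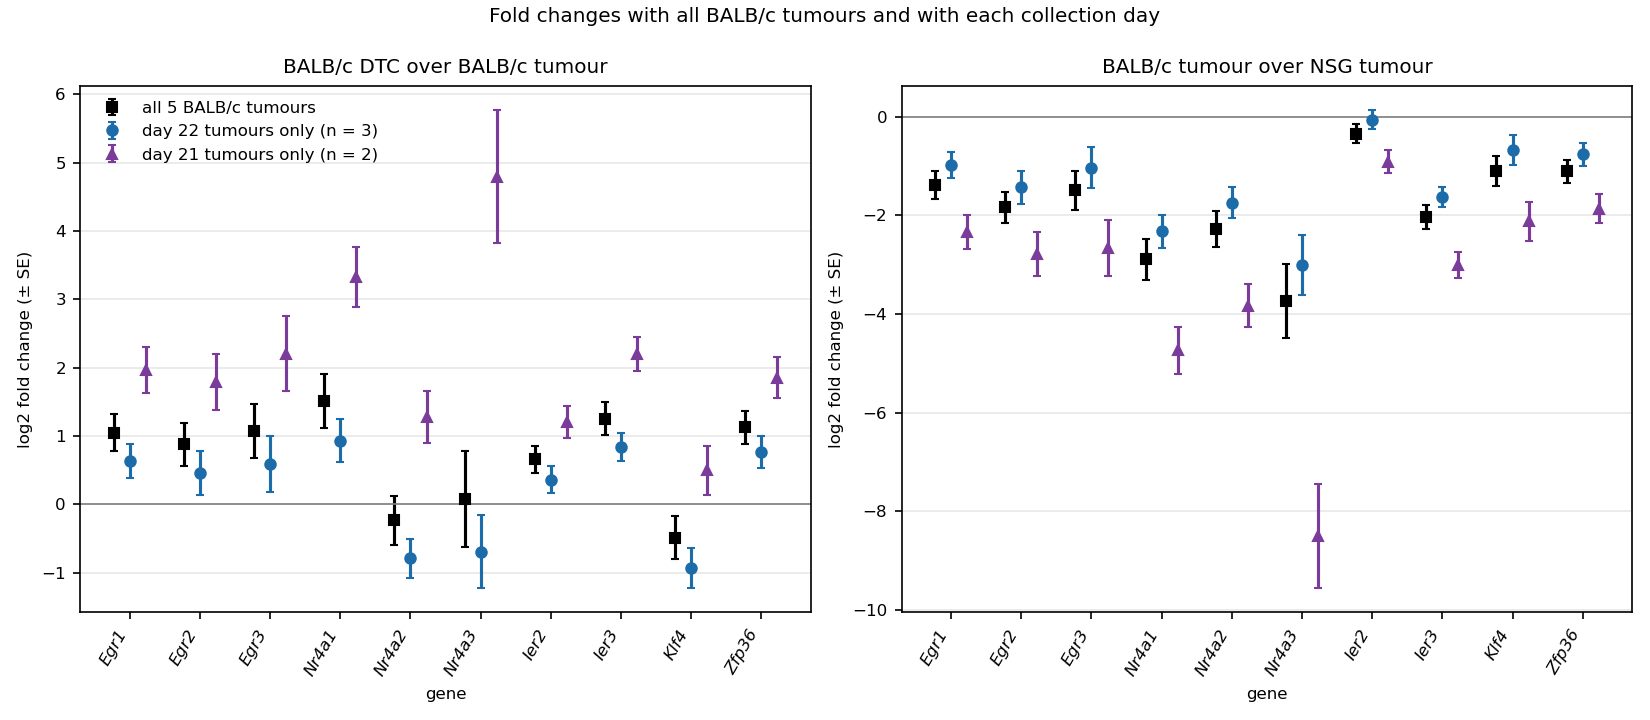
Log2 fold changes ± SE of BALB/c DTC over BALB/c tumours (left) and BALB/c tumours over NSG tumours (right), fitted with all 5 BALB/c tumours, with the 3 of day 22 and with the 2 of day 21. Against day 22 tumours the changes are nearer 0 for 7 of the 10 genes on the left, and 3 genes differ in sign between the days: Nr4a2 (-0.79 with day 22, 1.28 with day 21), Klf4 (-0.93 and 0.50) and Nr4a3 (negative with day 22, positive with day 21).

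In BALB/c mice, disseminated cells in the lung held more of most of these transcripts than tumours. Of the 10 genes, 7 rose in BALB/c DTC and none fell, where 20.4% of all genes were called higher and 21% lower. The median log2 fold change was 0.96 for the 10 genes and -0.09 for all genes. Fibroblast markers summed to 89.8 to 202 CPM in BALB/c DTC and 268.9 to 853 CPM in BALB/c tumours. Red cell markers summed to 4.12 to 10.9 CPM in BALB/c DTC and 0.525 to 3.65 CPM in BALB/c tumours, and lung markers differed as given above. Macrophage and monocyte markers summed to 94.4 to 713 CPM in BALB/c DTC, overlapping BALB/c tumours (67.3 to 175). Of these 10 markers 1 was called higher and 4 lower in BALB/c DTC (median log2 fold change -0.591). Lyz2 averaged 183.5 CPM in BALB/c DTC and 16.9 CPM in BALB/c tumours, and C1qa 0.824 and 5.83 CPM. Neutrophil markers (8 genes) summed to 9.59 to 66.5 CPM in BALB/c DTC, overlapping BALB/c tumours (1.765 to 37.5). Mammary carcinoma markers summed to 7790 to 10450 CPM in BALB/c DTC and 6914 to 7724 CPM in BALB/c tumours, without overlap. The part of all these markers was not tested. Nr4a1 measured 247, 260.5, 301, 201.5 and 367 CPM in BALB/c DTC, all above the highest BALB/c tumour, with a log2 fold change of 1.51 ± 0.39 (adjusted p = 0.00286). Ier3 measured 757.5, 958, 983, 919 and 1288 CPM in BALB/c DTC, likewise above every BALB/c tumour (1.26 ± 0.24, adjusted p = 0.000146). Both were also called against day 22 tumours alone, at 0.93 for Nr4a1 and 0.84 for Ier3. Zfp36 measured 622, 639.5, 631, 626 and 943 CPM in BALB/c DTC (1.12 ± 0.24, adjusted p = 0.00043), and 0.76 against day 22 tumours. For the other 4 genes that rose the call ended without the day 21 tumours. Egr1 measured 651, 713, 651, 689.7 and 876 CPM in BALB/c DTC (1.05 ± 0.27, adjusted p = 0.00306), but 0.63 against day 22 tumours (adjusted p = 0.0528). Egr3 averaged 28.8 ± 3.34 CPM in BALB/c DTC (1.07 ± 0.39), Egr2 55 ± 15.1 CPM (0.88 ± 0.31) and Ier2 805 ± 161 CPM (0.66 ± 0.20), and against day 22 tumours their values were 0.60, 0.46 and 0.36, none of them called.

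The other 3 genes were not called in BALB/c DTC. Nr4a2 measured 16.7, 19.6, 19.6, 15.2 and 9.02 CPM in BALB/c DTC, between the day 21 and the day 22 tumours, with a log2 fold change of -0.24 ± 0.36 (adjusted p = 0.621). Nr4a3 had 119, 48, 24, 33 and 31 reads in BALB/c DTC (0.08 ± 0.71, adjusted p = 0.942), and replicate 1, the highest, was also the library with the most lung epithelial marker RNA. Klf4 averaged 70.6 ± 6.12 CPM in BALB/c DTC (-0.49 ± 0.31, adjusted p = 0.209). Against day 22 tumours Nr4a2 (-0.79) and Klf4 (-0.93) were called lower, and against day 21 tumours Nr4a2 (1.28) and Nr4a3 were called higher, and those tumours had 1 and 4 reads of Nr4a3. Without the lung-rich BALB/c DTC replicates 1 and 2, the same number of genes, 7, was called higher, and the share of all genes in that fit is not given. Leaving out 1 library ended the call of Egr2 (without BALB/c tumour replicate 1 or 2 or DTC replicate 5, at 0.67 to 0.73), of Egr3 (without tumour replicate 1 or 2 or DTC replicate 3, 4 or 5, at 0.87 to 1.03) and of Ier2 (without DTC replicate 5, at 0.50). GC and length offsets also ended the calls of Egr2 (0.71) and Egr3 (0.91).

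In NSG mice the genes that were called in this step were lower, not higher, in DTC. Of the 10 genes, 3 fell in NSG DTC against NSG tumours and none rose, where 9.55% of all genes were called lower and 16% higher. The median was -0.64 for the 10 genes and 0.06 for all genes. Fibroblast markers summed to 150.4 to 203 CPM in NSG DTC and 253.5 to 361 CPM in NSG tumours, red cell markers (5 genes) to 17.4 to 65.4 CPM in NSG DTC and 1.13 to 6.1 CPM in NSG tumours, and mammary carcinoma markers to 4560 to 7695 CPM in NSG DTC and 9673 to 10120 CPM in NSG tumours. None of these overlapped, and their part was not tested. Egr2 measured 51.2, 50.9, 58.1, 59.2 and 41.5 CPM in NSG DTC, all under the lowest NSG tumour at 71 (-1.04 ± 0.31, adjusted p = 0.0144). Klf4 measured 78.5, 92.2, 99.2, 121 and 87.1 CPM in NSG DTC, all under the lowest NSG tumour at 168 (-1.15 ± 0.31, adjusted p = 0.007). Ier3 averaged 1056 ± 88.6 CPM in NSG DTC against 1689 ± 218 CPM in NSG tumours (-0.68 ± 0.24, adjusted p = 0.0365). The call of Ier3 ended without any of NSG tumour replicates 1, 3, 4 and 5 or NSG DTC replicates 2, 3 and 5, at -0.67 to -0.72, and on log2(TPM + 1), at -0.45. On that scale Egr2 was also not called (-0.78, adjusted p = 0.0501). Egr1 (-0.60), Nr4a1 (-0.79) and Nr4a3 (-1.68) were lower in NSG DTC without overlap but were not called, and Nr4a3 was called on log2(TPM + 1) (-1.19) and with GC and length offsets (-1.87). Without the libraries of few genes, 6 genes were called lower, with Egr1 (-0.87), Nr4a3 (-1.92) and Zfp36 (-0.70) added, and with the spread taken from the NSG tumours and NSG DTC alone 8 were. The shares of all genes called in these fits are not given, so these counts have no reference. Egr3 (0.02 ± 0.39) and Ier2 (0.03 ± 0.20) had values near 0.

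The difference between hosts in the change from tumour to DTC was tested as an interaction. It uses the same tumour libraries as the BALB/c against NSG tumour comparison and is not independent of it. It was positive, with a more positive change in BALB/c mice, and called for 5 genes and negative for none, where 15% of all genes were called positive and 18.4% negative. Nr4a1 had an interaction of 2.30 ± 0.55 (adjusted p = 0.00178), Ier3 of 1.93 ± 0.34, Egr2 of 1.91 ± 0.44, Egr1 of 1.65 ± 0.39 and Zfp36 of 1.58 ± 0.34. With day 22 tumours alone the same 5 values were 1.75, 1.54, 1.53, 1.26 and 1.24, all called. Egr3 (1.05), Nr4a2 (0.24), Nr4a3 (1.76), Ier2 (0.63) and Klf4 (0.66) were not called. Leaving out the libraries of few genes gave 9 calls, all but Nr4a2, and the share of all genes called in that fit is not given.

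**Figure D3:**
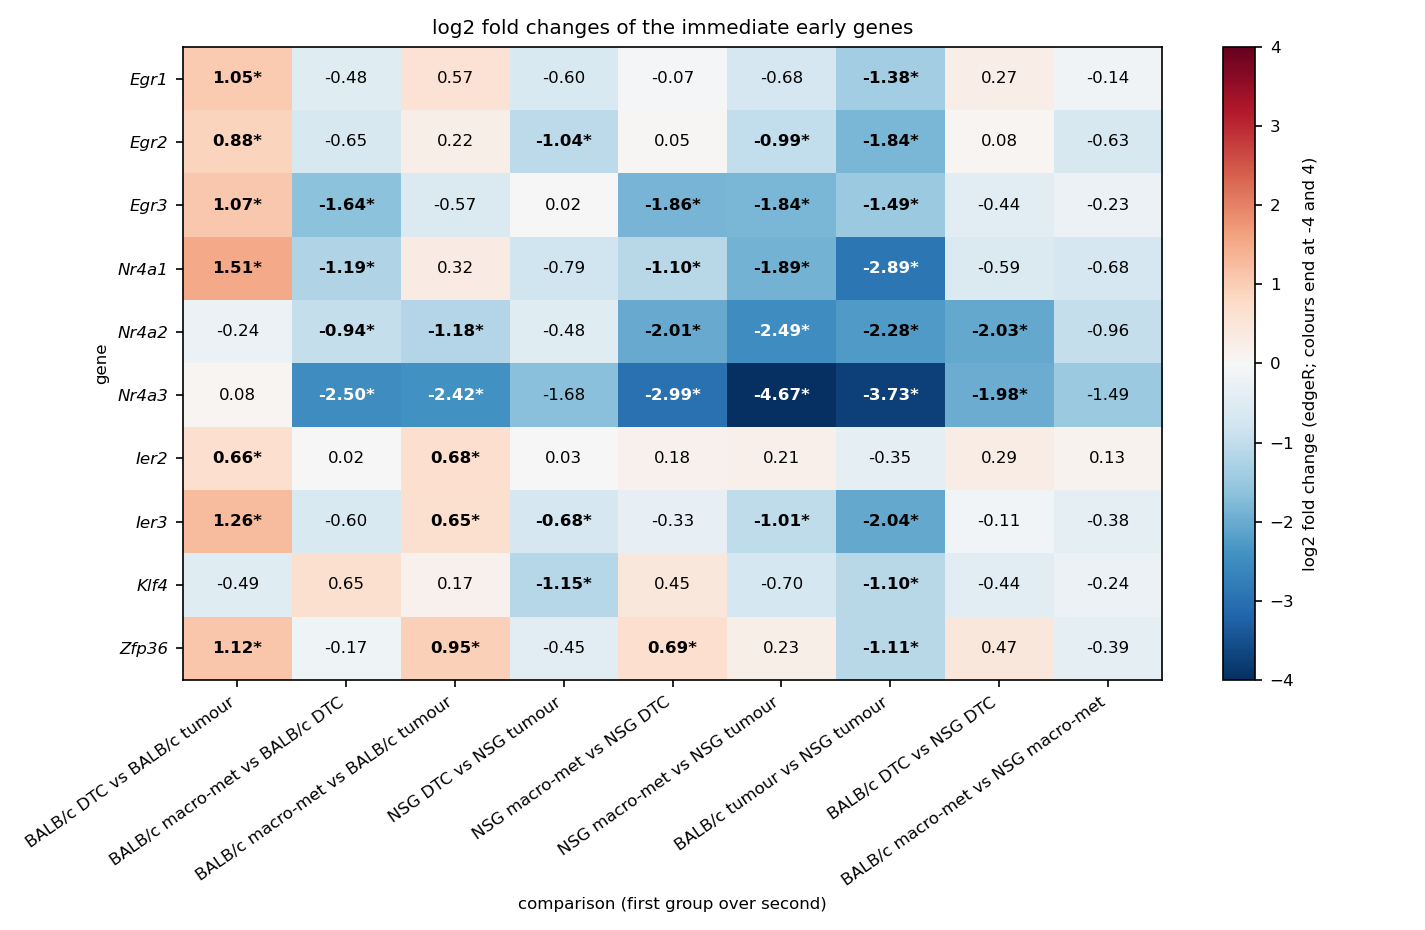
Log2 fold changes of the 10 genes (rows) in the 9 comparisons of 2 groups (columns, first group over second), with the colour scale ending at -4 and 4. An asterisk and bold type mark adjusted p under 0.05 in edgeR; the column of BALB/c over NSG tumours has 9 such cells, all negative, and that of BALB/c over NSG macro-mets has 0.

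Macro-metastases held less of 4 of these transcripts than disseminated cells in both hosts. Egr3, Nr4a1, Nr4a2 and Nr4a3 fell in macro-mets against DTC in BALB/c and in NSG mice, and these comparisons share no library. In BALB/c mice 4 of the 10 genes fell and none rose, where 14.2% of all genes were called lower and 16.6% higher. In NSG mice 4 fell and 1 rose, where 22.4% of all genes were called lower and 21.3% higher. The median of the 10 genes was -0.63 in BALB/c mice, against -0.04 for all genes, and -0.20 in NSG mice, against 0.03 for all genes. Summed fibroblast markers were higher in macro-mets without overlap, at 363 to 574 CPM in BALB/c macro-mets against 89.8 to 202 CPM in BALB/c DTC. In NSG mice they were at 472.5 to 586 CPM in macro-mets against 150.4 to 203 CPM in DTC. Of the 8 fibroblast markers, 3 were called higher and 1 lower in BALB/c mice, with a median log2 fold change of 0.069. In NSG mice 4 were called higher and none lower (median 1.35). Endothelial markers summed to 197.3 to 251.6 CPM in NSG macro-mets and 157.4 to 190.4 CPM in NSG DTC. Neutrophil markers summed to 3.04 to 16.9 CPM in NSG macro-mets and 1.19 to 3.03 CPM in NSG DTC. Mammary carcinoma markers were lower without overlap in BALB/c macro-mets, at 5018 to 7739 CPM against 7790 to 10450 CPM in BALB/c DTC. Their part in the result was not tested.

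Egr3, which like Egr1 is induced by growth factors and calcium, measured 3.15, 6.28, 8.71, 19.3 and 8.7 CPM in BALB/c macro-mets, against 24, 27, 29.6, 31.8 and 31.8 CPM in BALB/c DTC. The highest macro-met, replicate 4, was under the lowest DTC, and the log2 fold change was -1.64 ± 0.40 (adjusted p = 0.00241). In NSG mice Egr3 measured 9.79, 10.2, 16.1, 14.5 and 3.44 CPM in macro-mets, against 32.6, 46.2, 31.7, 47.9 and 37.3 CPM in DTC. These were again apart, with a log2 fold change of -1.86 ± 0.40 (adjusted p = 0.000402). Egr1 and Egr2 were not called in either host. Egr1 averaged 513 ± 199.7 CPM in BALB/c macro-mets and 716 ± 93.1 CPM in BALB/c DTC (-0.48 ± 0.27), and 565 ± 114 CPM in NSG macro-mets and 594 ± 108 CPM in NSG DTC (-0.07 ± 0.27). Egr2 had log2 fold changes of -0.65 ± 0.31 in BALB/c and 0.05 ± 0.31 in NSG mice, neither called.

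Nr4a1 measured 62.9, 130.2, 127, 145 and 138 CPM in BALB/c macro-mets, all under the lowest BALB/c DTC at 201.5 (-1.19 ± 0.39, adjusted p = 0.0199). In NSG mice it measured 139.7, 172, 325, 243.5 and 88.3 CPM in macro-mets, against 332, 442, 432, 527 and 346 CPM in DTC (-1.10 ± 0.39, adjusted p = 0.022). The Nr4a1 call ended in BALB/c mice without DTC replicate 5 (-1.04) or macro-met replicate 1 (-1.02), and in NSG mice without DTC replicate 4 (-0.98) or macro-met replicate 1 (-1.01) or 5 (-0.93). Nr4a2 measured 11.8, 15.8, 26, 17.8 and 9.6 CPM in NSG macro-mets, against 54.6, 62, 72.6, 74.8 and 63.3 CPM in NSG DTC, far apart (-2.01 ± 0.37, adjusted p = 5.68e-05). In BALB/c mice it measured 5.48, 4.22, 13.2, 10 and 8.89 CPM in macro-mets, overlapping BALB/c DTC, and the log2 fold change of -0.94 ± 0.37 was just past the threshold (adjusted p = 0.0494). That call ended without any of 8 of the 10 libraries compared, DTC replicates 1 to 4 and macro-met replicates 1, 2, 4 and 5 (-0.75 to -1.02), and on log2(TPM + 1) (-0.77).

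Nr4a3 had 31, 43, 69, 17 and 5 reads in NSG macro-mets, against 168, 284, 314, 424 and 152 reads in NSG DTC (-2.99 ± 0.74, adjusted p = 0.00161). In BALB/c macro-mets it had 6, 1, 11, 22 and 17 reads (-2.50 ± 0.79 against BALB/c DTC, adjusted p = 0.0157). Reads were few in both BALB/c groups, and the call ended without DTC replicate 1 (-1.87, adjusted p = 0.0781), without both lung-rich libraries (-1.65, adjusted p = 0.18) and on log2(TPM + 1) (-0.45). Without the lung-rich libraries Nr4a2 was also not called (-0.80), while Egr3 (-1.74) and Nr4a1 (-1.27) still were.

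None of the other 6 genes was called lower. Zfp36 rose in NSG macro-mets, at 779, 808, 984, 928 and 527 CPM against 475.5, 563, 610.2, 507 and 347 CPM in NSG DTC, where replicate 5 of the macro-mets overlapped DTC (0.69 ± 0.24, adjusted p = 0.0199). Its call ended without NSG DTC replicate 5 (0.59), NSG macro-met replicate 3 (0.58) or 4 (0.62), and with GC and length offsets (0.36, adjusted p = 0.243). In BALB/c mice the Zfp36 value was -0.17 ± 0.24. Ier2 had 0.02 ± 0.20 in BALB/c and 0.18 ± 0.20 in NSG mice, and Klf4 had 0.65 ± 0.31 in BALB/c and 0.45 ± 0.31 in NSG mice, none of them called. Ier3 stood at -0.60 ± 0.24 in BALB/c mice (adjusted p = 0.0554), on the edge of the threshold and called with DESeq2 (-0.65), and at -0.33 ± 0.24 in NSG mice. None of the 10 genes was called for a host difference in this change by the interaction test in edgeR, where 16.6% of all genes were called positive and 11.6% negative. At an unadjusted p under 0.05 there were 2 genes, and DESeq2 called 1, Zfp36 (-0.89).

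**Figure D4:**
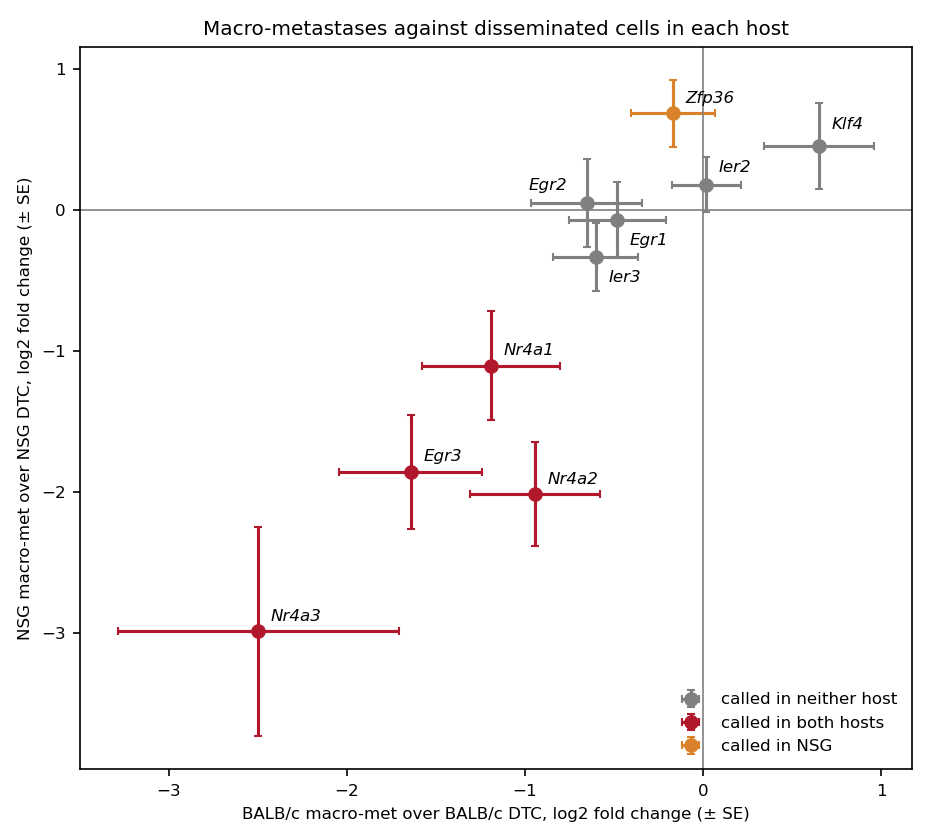
Log2 fold changes ± SE of macro-mets over DTC in BALB/c mice (x axis) and in NSG mice (y axis) for the 10 genes, coloured by whether edgeR called them in each host. Egr3, Nr4a1, Nr4a2 and Nr4a3 lie in the lower left, between -0.94 and -2.50 in BALB/c and between -1.10 and -2.99 in NSG mice, and the other 6 genes lie between -0.65 and 0.69 on both axes.

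Set against tumours, Nr4a2 and Nr4a3 fell in macro-mets of both hosts, though in BALB/c mice not against day 21 tumours alone. In NSG mice 6 of the 10 genes fell in macro-mets and none rose, where 13.6% of all genes were called lower and 16.9% higher. Markers of other cells moved with this step without overlap: fibroblast markers summed to 472.5 to 586 CPM in NSG macro-mets and 253.5 to 361 CPM in NSG tumours, and red cell markers to 11.9 to 54.3 CPM in NSG macro-mets and 1.13 to 6.1 CPM in NSG tumours. Of the 8 fibroblast markers, 3 were called higher and none lower. Macrophage and monocyte markers summed to 76.9 to 116.7 CPM in NSG macro-mets and 38.9 to 63.3 CPM in NSG tumours. Endothelial markers summed to 197.3 to 251.6 CPM in NSG macro-mets and 159.4 to 194.4 CPM in NSG tumours. Lung epithelial markers summed to 41.2 to 68.3 CPM in NSG macro-mets and 23.4 to 31.1 CPM in NSG tumours, and these sums did not overlap either. Mammary carcinoma markers summed to 5619 to 6421 CPM in NSG macro-mets and 9673 to 10120 CPM in NSG tumours. The part of these markers in the result was not tested. The genes that fell were Nr4a3 (-4.67 ± 0.79), Nr4a2 (-2.49 ± 0.38), Nr4a1 (-1.89 ± 0.40), Egr3 (-1.84 ± 0.40), Ier3 (-1.01 ± 0.24) and Egr2 (-0.99 ± 0.31). All but Egr2 were apart without overlap, and the share of all genes apart in this step is not given. Egr1 (-0.68 ± 0.27, adjusted p = 0.0603) was apart too but not called, and DESeq2 called it (-0.72). Klf4 (-0.70 ± 0.31) was not called, and NSG macro-met replicate 3, at 268 CPM beside 65.3 to 124 in the other 4, was the highest library of the group. Without that library Klf4 was called (-1.18, adjusted p = 0.00255). Ier2 (0.21 ± 0.20) and Zfp36 (0.23 ± 0.24) were not called.

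In BALB/c mice 3 genes rose and 2 fell in macro-mets against tumours. Of all genes 19.6% were called higher and 18.2% lower, so these counts are near the shares of all genes. Zfp36 (0.95 ± 0.24), Ier2 (0.68 ± 0.20) and Ier3 (0.65 ± 0.24) rose, and Nr4a2 (-1.18 ± 0.37) and Nr4a3 (-2.42 ± 0.79) fell. Red cell markers summed to 7.59 to 47.4 CPM in BALB/c macro-mets and 0.525 to 3.65 CPM in BALB/c tumours. Endothelial markers summed to 195.4 to 258.4 CPM in BALB/c macro-mets and 149.4 to 190.9 CPM in BALB/c tumours. The part of both was not tested. Nr4a2 and Nr4a3 lost their calls on log2(TPM + 1) (-0.80 and -0.38) and with the compared groups alone (-1.23 and -2.48). Ier3 lost its call with RLE factors (0.57), no filter (0.65), the compared groups alone (0.60) and GC and length offsets (0.54). Most of these calls changed with the day of the tumours. Against day 22 tumours none rose, with Zfp36 at 0.59 (adjusted p = 0.0515), Ier2 at 0.37 and Ier3 at 0.23, and 3 fell: Nr4a2 (-1.73), Nr4a3 (-3.17) and Egr3 (-1.04). Against day 21 tumours 7 were called higher and none lower, and Nr4a2 (0.36) and Nr4a3 (a fitted 2.34, against 1 and 4 reads) changed sign, as did Egr3, at 0.59 against day 21 tumours and -0.57 against all 5, called with neither. Nr4a3 was also not called without BALB/c tumour replicate 4 (-1.77), which held the most Nr4a3 reads of its group and was among the libraries of few genes. The call of Ier3 ended without BALB/c tumour replicate 1 or 2 or without macro-met replicate 2, 3, 4 or 5, at 0.47 to 0.64. Without macro-met replicate 1, Egr1 was called higher (0.75), and without macro-met replicate 4, Egr3 was called lower (-1.06). The interaction of this change with host was positive and called for Nr4a1 (2.21 ± 0.55, adjusted p = 0.016) and Ier3 (1.66 ± 0.34, adjusted p = 0.00367), where 3.53% of all genes were called positive and 1.7% negative. Both were called with day 22 tumours alone as well, at 1.66 for Nr4a1 and 1.27 for Ier3. The call of Nr4a1 ended without a low-count filter (2.17, adjusted p = 0.0503) and with the compared groups alone (2.20, adjusted p = 0.0547). Without BALB/c macro-met replicate 1, 4 genes were called, Egr1 (1.46) and Egr2 (1.44) being added. Shares of all genes called are not given for this fit or for the fits by tumour day.

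Between hosts in the lung, Nr4a2 and Nr4a3 were lower in BALB/c DTC than in NSG DTC. These were 2 of the 10 genes, none was higher, and 21.7% of all genes were called lower and 17.1% higher, so the count is near the share of all genes. With the compared groups alone 6 were called, Egr3 (-0.38), Nr4a1 (-0.53) and Klf4 (-0.37) being added as lower and Zfp36 (0.53) as higher. For that fit the share of all genes called is not given. Nr4a2 was lower without overlap, at 9.02 to 19.6 CPM in BALB/c DTC and 54.6 to 74.8 CPM in NSG DTC (-2.03 ± 0.37, adjusted p = 6.96e-05). It was called under every alternative run, with -2.16 without the lung-rich libraries. Nr4a3 averaged 1.27 ± 1.02 CPM in BALB/c DTC and 5.01 ± 1.71 CPM in NSG DTC (-1.98 ± 0.71, adjusted p = 0.0274), and BALB/c DTC replicate 1 alone reached the NSG range. Its call ended without BALB/c DTC replicate 3, 4 or 5 or NSG DTC replicate 4 (-1.78 to -1.91) and with GC and length offsets (-1.83). Nr4a1 (-0.59 ± 0.38), Egr1 (0.27 ± 0.27) and Ier3 (-0.11 ± 0.24) were not called. Zfp36 was apart without overlap, at 622 to 943 CPM in BALB/c DTC and 347 to 610.2 CPM in NSG DTC, but was not called (0.47 ± 0.24, adjusted p = 0.123). Red cell markers (5 genes) differed as well, at 4.12 to 10.9 summed CPM in BALB/c DTC and 17.4 to 65.4 in NSG DTC. Neutrophil markers (8 genes) summed to 9.59 to 66.5 CPM in BALB/c DTC and 1.19 to 3.03 CPM in NSG DTC. Mammary carcinoma markers summed to 7790 to 10450 CPM in BALB/c DTC and 4560 to 7695 CPM in NSG DTC. Lung epithelial markers differed as given above. None of these sums overlapped, and the part of these markers in the values was not tested. In macro-mets none of the 10 genes was called between hosts in edgeR or DESeq2, where 1.88% of all genes were called higher and 0.76% lower in BALB/c mice, and 1 gene had an unadjusted p under 0.05. The 3 Nr4a genes had the most negative values there, at -0.68 ± 0.39 for Nr4a1, -0.96 ± 0.36 for Nr4a2 and -1.49 ± 0.79 for Nr4a3.

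As a description over the 30 libraries, which share groups, depth and scaling, the Pearson r of each gene's log2 CPM with the mean of the other 9 was 0.96 for Nr4a1, 0.95 for Ier3, 0.94 for Egr2 and 0.92 for Egr1, and 0.37 for Ier2. With group means subtracted, Nr4a1 (0.96), Ier3 (0.92), Egr1 (0.91), Egr2 (0.89), Egr3 (0.89) and Zfp36 (0.88) were high, Klf4 stood at 0.80, Nr4a2 at 0.76, Nr4a3 at 0.72 and Ier2 at 0.61. The genes outside the set whose levels were most like the mean of the 10 over the 30 libraries were Csf2 (r = 0.93), Tnfaip3 (0.92), Atf3 (0.92), Dusp8 (0.91) and Tlr2 (0.91). With group means subtracted they were Csrnp1 (0.98), Dusp8 (0.93), Tnfaip3 (0.92), Fosb (0.91) and Cxcl2 (0.90). Subtracting group means leaves in place the split of BALB/c tumours by day, in which all 10 genes were higher on day 22. The part of that split in these values was not tested.

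Genes of the surrounding pathway were counted from lists, with all 5 BALB/c tumours and no separate fit by tumour day. In BALB/c against NSG tumours 12.6% of all genes were called lower and 11% higher. In that comparison 7 of the 8 AP-1 and Atf3 genes were called lower and none higher, with a list median of -1.33, and the leading genes were Fosl1 (-2.15 ± 0.28), Fosl2 (-1.33 ± 0.20) and Atf3 (-2.51 ± 0.38). Of 17 feedback genes of the MAPK pathway, 12 were called lower and none higher (median -0.80). These included the ERK phosphatase gene Dusp5 (-2.21 ± 0.20), Spry2 (-1.20 ± 0.12) and Spry4 (-1.49 ± 0.24), which encode inhibitors of receptor signalling, and Dusp1 (-1.88 ± 0.30). Of 26 other immediate and delayed early genes, 13 were called lower and 1 higher, led by Klf10 (-1.45 ± 0.15), Cyr61 (-1.85 ± 0.23) and Gadd45b (-1.90 ± 0.24). Upstream, of 17 genes of the ERK cascade, SRF and its partners, 4 were called lower and 2 higher, with a median of -0.05. Among 9 EGF receptor family genes and ligands, the ligand genes Hbegf (-1.39 ± 0.14) and Tgfa (-0.77 ± 0.17) were called lower and the receptor gene Egfr (0.67 ± 0.21) higher in BALB/c tumours. Of 10 heat shock genes 2 were called higher and 1 lower. The counts of the ERK cascade genes called higher and of the heat shock genes are near the shares of all genes.

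In BALB/c DTC against BALB/c tumours, 4 of 8 AP-1 and Atf3 genes rose and none fell, 9 MAPK feedback genes rose and 3 fell, and 13 other immediate early genes rose and 1 fell. The lists held 8, 17 and 26 genes, and 20.4% of all genes were called higher and 21% lower, so the 3 feedback genes that fell are near the share of all genes. Dusp5 (2.08 ± 0.20), the kinase gene Plk3 (2.19 ± 0.22) and Fosl1 (1.87 ± 0.27) led these lists. In NSG DTC against NSG tumours, 5 AP-1 and Atf3 genes fell and none rose, with Fos at -1.52 ± 0.22 and Fosb at -2.15 ± 0.38. Of 26 other immediate early genes 9 fell and none rose, where 9.55% of all genes were called lower and 16% higher. Of 17 MAPK feedback genes only 2 fell, near the share of all genes, and 1 rose (median -0.255). All 8 AP-1 and Atf3 genes had a positive called interaction with host in this step, with a median of 1.70, where 15% of all genes were called positive. For 9 genes whose mRNAs carry AU-rich elements that tristetraprolin is known to bind, the 3 steps in which Zfp36 rose are given first. In BALB/c DTC against tumours 6 rose and none fell, led by the cytokine genes Tnf (3.67 ± 0.36) and Lif (2.34 ± 0.32). In NSG macro-mets against NSG DTC 3 fell and none rose, Ptgs2 (-2.54 ± 0.37), Tnf (-1.98 ± 0.33) and Lif (-0.99 ± 0.30), where 22.4% of all genes were called lower. In BALB/c macro-mets against tumours 3 rose, Tnf (1.31 ± 0.33), Vegfa (1.03 ± 0.16) and Lif (0.88 ± 0.30), and 1 fell, Ptgs2 (-1.16 ± 0.36), where 19.6% of all genes were called higher and 18.2% lower. In BALB/c against NSG tumours, where Zfp36 was lower, 6 of the 9 were called lower and none higher (median -1.315; 12.6% of all genes lower). In BALB/c macro-mets against DTC, where Zfp36 was not called, 6 fell and none rose (median -1.444, 14.2% of all genes lower). Other comparisons of this list are not described.

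In NSG macro-mets against NSG DTC, where Egr3 and the Nr4a genes fell, 3 of 8 AP-1 and Atf3 genes rose and none fell: Jund (1.07 ± 0.19), Jun (0.90 ± 0.18) and Fos (0.74 ± 0.22). In BALB/c mice 3 fell and 1 rose, with Atf3 at -1.45 ± 0.37 and Jun at 0.56 ± 0.18. MAPK feedback genes moved in both directions, 6 rising and 3 falling in BALB/c mice and 5 rising and 4 falling in NSG mice of 17 in each, where 16.6% of all genes were called higher and 14.2% lower in BALB/c mice and 21.3% higher and 22.4% lower in NSG mice. In NSG mice the counts of this list are near those shares. Spry1 was higher in macro-mets of both hosts (1.64 ± 0.18 in BALB/c and 1.63 ± 0.18 in NSG mice). Of 10 heat shock genes, 6 fell and 1 rose in BALB/c macro-mets and 4 fell and none rose in NSG macro-mets, with Hsph1 at -2.20 ± 0.24 in each host, beside the same shares of all genes. Creb1, which encodes the factor named above for TGACG, fell in NSG macro-mets against NSG DTC (-2.30 ± 0.22) and against NSG tumours (-0.98 ± 0.21), and rose in NSG DTC against NSG tumours (1.32 ± 0.21), where the Nr4a genes were not called. In BALB/c DTC Creb1 fell against tumours (-1.18 ± 0.21), where Nr4a1 rose and Nr4a2 and Nr4a3 were not called. Creb1 was lower in BALB/c than in NSG DTC (-1.56 ± 0.21), as were Nr4a2 and Nr4a3. Creb1 values are not given for BALB/c against NSG tumours, where the Nr4a genes were lower. Nor are they given for BALB/c macro-mets against DTC, where the Nr4a genes fell. The part of Creb1 in the Nr4a values was not tested.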

How the data were processed

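RNA from sorted 4T1-tdTomato cells was sequenced in 30 libraries, 5 in each of 6 groups taken from the sample titles. The deposited table holds raw counts per gene and the authors' TPM values. Per the submitters' processing notes, Trimmomatic 0.36, STAR 2.5.2b and GRCm38 (mm10) were used. The counting tool, its strand setting and the annotation are not given in the sources used here, so overlapping and antisense genes may share reads. Of 49315 genes, 17774 passed a low-count filter by group and held 99.969% of all counts. Counts were fitted in edgeR 4.0.16 (R 4.3.3) with TMM factors and a robust quasi-likelihood test over all 30 libraries, with 9 comparisons of 2 groups and 3 interactions with host. P-values were adjusted by Benjamini-Hochberg over all genes tested, and a gene was called at an adjusted p under 0.05. The residual degrees of freedom were 24 and the median biological coefficient of variation was 0.269. Errors are SE for log2 fold changes and SD for CPM. The fit was tested on simulated counts first.

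Alternatives were RLE factors, no filter, a fit of the compared groups alone, DESeq2 1.42.0, limma 3.58.1 on log2(TPM + 1) and log2(TPM + 0.1), offsets for GC content and length, and leaving out each library or the 2 lung-rich libraries. Fits by tumour day and without the 4 libraries with the fewest genes detected were added after the data were seen. The 10 genes and all gene lists were chosen with earlier results of these data known. From each other list at most 4 called genes with the smallest adjusted p and a mean TPM of at least 1 are named in a comparison. Likeness was computed over genes whose log2 CPM averaged 3 or more. Promoters are from RefSeq (GRCm38.p6).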

Additional observations from a re-analysis of the deposited data

Results flagged for a closer look

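In 5 of 60 groups of 5 libraries, a single library stood far from the others by Dixon's test at the 95% level, which chance gives in about 1 in 20 groups. NSG macro-met replicate 5 had 364 CPM of Egr1, where the other 4 had 584 to 641. BALB/c macro-met replicate 1 had 62.9 CPM of Nr4a1, where the others had 127.1 to 145.4. NSG DTC replicate 3 had 360 CPM of Ier2, where the others had 679.3 to 794.4. NSG tumour replicate 2 had 1310 CPM of Ier3, where the others had 1713 to 1829. BALB/c DTC replicate 5 had 943 CPM of Zfp36, where the others had 621.6 to 639.5.

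The change between stages differed between hosts in the interaction test, BALB/c minus NSG, in 7 cases. For DTC against tumours the difference was 1.65 for Egr1, 1.91 for Egr2, 2.30 for Nr4a1, 1.93 for Ier3 and 1.58 for Zfp36. For macro-mets against tumours it was 2.21 for Nr4a1 and 1.66 for Ier3. All 7 were called with the BALB/c tumours of day 22 alone as well. All 7 share the NSG tumours and the BALB/c tumours, so they are not independent of the tumour difference between hosts. With all libraries in edgeR, none of these genes was called between hosts in DTC or in macro-mets.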

How the results depend on the processing

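No paired analysis was possible because the numbers in the sample titles are not shared between the groups. Over all results and alternatives, 2425 values kept their direction and call, 99 lost a call, 93 gained one, 3 reversed and 90 counts or values moved. The reversals came with the BALB/c tumours of day 21 alone: for BALB/c DTC against tumours Nr4a2 became 1.28, and for BALB/c macro-mets against tumours Nr4a2 became 0.36 and Nr4a3 2.34.

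Counts of the 10 genes called moved by over 1.5 times in these settings. BALB/c macro-mets against DTC (4 called) gave 2 on log2(TPM + 1), 1 without a filter on that scale and 2 without the lung-rich libraries. BALB/c macro-mets against tumours (5) gave 2 with the compared groups alone, 3 on log2(TPM + 1), log2(TPM + 0.1) and log2(TPM + 1) without a filter, and 3 with day 22 tumours. NSG DTC against tumours (3) gave 8 with the compared groups alone and 6 without libraries of few genes. BALB/c against NSG DTC (2) gave 1 without a filter, 6 with the compared groups alone and 1 with GC and length offsets. The host difference of DTC against tumours (5) gave 10 with day 21 tumours and 9 without libraries of few genes. That of macro-mets against DTC (0) gave 1 with RLE factors, the compared groups alone, DESeq2 and log2(TPM + 1) without a filter, and 2 on log2(TPM + 1). That of macro-mets against tumours (2) gave 1 without a filter and with the compared groups alone, 4 on log2(TPM + 1), 10 with day 21 tumours and 5 without libraries of few genes. The shares of all genes called in these settings are not given beside the counts. The cause was not tested.

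Leaving out each library in turn gave 4 to 7 calls for BALB/c DTC against tumours, 2 to 4 for BALB/c macro-mets against DTC, 4 to 6 for BALB/c macro-mets against tumours, 2 to 3 for NSG DTC against tumours, 4 to 5 for NSG macro-mets against DTC, 6 to 7 for NSG macro-mets against tumours, 9 to 10 for BALB/c against NSG tumours, 1 to 2 for BALB/c against NSG DTC and 0 for BALB/c against NSG macro-mets. The host differences gave 5 to 6 for DTC against tumours, 0 to 1 for macro-mets against DTC and 2 to 4 for macro-mets against tumours. Depth limits Nr4a3, which had 1 to 135 reads in BALB/c tumours and 1 to 22 in BALB/c macro-mets.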
